A study of Sus scrofa with 23 samples.

Results

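SOCS1, IL2RG and BCL3 are 3 genes of cytokine signalling, and their levels were followed through 23 RNA-seq libraries of porcine oocytes and pre-implantation embryos. They were chosen by name, with their levels in these libraries already known, out of 8603 genes in the expression table. SOCS1 and BCL3 had been seen to be high in the part of the in vivo blastocyst that holds the inner cell mass (ICM), and IL2RG to be high in the in vivo 4-cell embryo, so these levels are given here as a description, without a test.

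The in vivo fertilized Duroc group (IV-D, 8 libraries) was collected from Duroc sows as metaphase II oocytes (OC), 1-cell (1C), 2-cell (2C), 4-cell (4C) and 8-cell (8C) embryos, morulae (MO) and blastocysts. The Duroc clones (NT-D) were made by nuclear transfer from ear fibroblasts of 1 Duroc boar, which also sired the IV-D embryos, and the Laiwu clones (NT-LW, 7 libraries) from ear fibroblasts of 1 boar of the Chinese Laiwu breed. In vitro matured oocytes of hybrid sows were the recipients of both kinds of nuclei. They form 1 of the 8 NT-D libraries, NT-D OC, and stand in for the oocyte of the Laiwu clones too. Blastocysts were cut by knife into IT, which held the ICM together with some trophectoderm, and TE, which held trophectoderm alone. IT is therefore not pure ICM. Oocytes and embryos were pooled, and every condition had 1 library, so no difference between conditions carries a biological error or a p-value. All clones were male and IV-D embryos were of both sexes. Clones were cultured in vitro and IV-D embryos were not, so breed, donor cell, culture and fertilization cannot be told apart in the clone comparisons.

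Cytokines bind receptors at the cell surface that carry Janus kinases (JAK). The kinases phosphorylate STAT proteins, which enter the nucleus and switch on target genes. One of these targets is usually SOCS1, whose protein binds JAK kinases and blocks them, closing a negative feedback loop. IL2RG encodes the common gamma chain, a subunit shared by the receptors of several interleukins, known for its role in lymphocytes, where its loss causes X-linked severe combined immunodeficiency. BCL3 encodes an atypical IkappaB protein, which works in the nucleus with the p50 and p52 subunits of NF-kappaB. In embryos, signals of the LIF and interleukin-6 family through STAT3 are known for their part in the survival and pluripotency of ICM cells.

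In the RefSeq annotation of Sscrofa11.1, the assembly to which the reads had been aligned, SOCS1 (ENSSSCG00000027855) lies on chromosome 3 from 31879143 to 31883041 on the plus strand and BCL3 (ENSSSCG00000027426) on chromosome 6 from 51256033 to 51264923 on the plus strand. IL2RG (ENSSSCG00000012397) lies on chromosome X from 57143568 to 57151242 on the minus strand. The first exon of its longest transcript overlaps the start of MED12 on the plus strand, which begins at 57150884. Sequences before the starts of SOCS1 and BCL3 are shown because these genes had similar profiles over the 23 libraries and because SOCS1 is a known target of interferon and STAT signals and BCL3 of NF-kappaB. The windows were read from the RefSeq genome of Sscrofa11.1, 5′ to 3′, and capitals mark letters that match a motif. The SOCS1 window is chr3:31880928-31881177 on the plus strand, the 250 bases before the transcript start annotated at 31881178, inside the intron of a longer SOCS1 transcript. The BCL3 stretch is chr6:51255930-51255959 on the plus strand, 30 bases that begin 103 bases before the annotated start.
SOCS1: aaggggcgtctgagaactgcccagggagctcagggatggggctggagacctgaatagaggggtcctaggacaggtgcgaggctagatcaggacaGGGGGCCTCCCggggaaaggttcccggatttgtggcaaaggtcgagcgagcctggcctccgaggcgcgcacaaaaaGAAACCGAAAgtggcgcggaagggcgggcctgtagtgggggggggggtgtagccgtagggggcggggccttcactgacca
BCL3: ccggcggcagGGGAAGTCCCggcgctcggc

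The 3 motifs searched on both strands were the STAT motif GAS as TTCNNNGAA, the core of the interferon-stimulated response element (ISRE) as GAAANNGAAA, and the NF-kappaB consensus by its name. The SOCS1 window held an ISRE core, GAAACCGAAA, 80 bases before the start, and overlapping NF-kappaB matches that begin 156 and 155 bases before it. Of 47433 windows of 250 bases before annotated mRNA starts, 2.88% held the ISRE core. The BCL3 stretch held an NF-kappaB match on both strands, GGGAAGTCCC, 93 bases before the start, and 14.9% of all windows held an NF-kappaB match. The RefSeq record of BCL3 begins at its start codon, so its true start may lie further away. The other 2 SOCS1 windows held no match, and of the 3 windows of IL2RG only that before 57148268 held an NF-kappaB match, 244 bases upstream. No window of the 3 genes held a GAS match, which 5.92% of all windows did. The NF-kappaB pattern allowed any base at its 2 middle positions, and the 250-base BCL3 window was 83.2% G or C. Motif matches are letters only and were not tested for binding.

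Levels are FPKM, fragments per kilobase of gene model and 1000000 fragments of the library. Depth was 14952784 to 22991067 fragments per library, and the whole number of fragments behind each value was worked out from the spacing of low FPKM values. Intervals are 95% exact counting intervals, Poisson for a level and binomial for a fold between 2 libraries. They cover counting error alone, since the reads were amplified without molecular identifiers. Genes under 1 FPKM in both libraries were not compared. A gene was called higher or lower when its log2(FPKM + 1) moved by more than 1, and the share of all compared genes called in the same direction is given beside it. The table is named by its depositors as one of differentially expressed genes, so these shares describe a selected set and not the transcriptome. Of 7 ICM or epiblast markers in the table, 6 were called higher in IV-D IT than TE, with NANOG at 9.80 and 0 FPKM, and their summed level was 152 FPKM in IV-D IT, 41.2 in NT-D IT and 55.4 in NT-LW IT. Trophectoderm markers were present in all 6 blastocyst libraries, at summed levels of 1277 to 2934 FPKM, most of it KRT8 and KRT18. In IV-D their sum was 1485 FPKM in IT and 1358 in TE, so it did not separate the parts. Of 10 trophectoderm markers compared between IV-D IT and TE, AQP3 and ELF3 were called higher in IT and GATA3 lower. The NT-LW 2C library stood apart from the other 2-cell libraries in its share of falls. From 1C to 2C 4.31% of genes fell in NT-LW, against 24.6% in IV-D and 26.5% in NT-D. Over this step 2.83% of genes rose in NT-LW, against 6.59% in IV-D and 2.45% in NT-D.

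SOCS1 was expressed in nearly every library, and 22 of 23 had at least 1 FPKM. In IV-D its level was 8.06 FPKM in OC, 12.2 in 1C, 3.76 in 2C, 17.2 in 4C, 19.9 in 8C, 18.5 in MO, 57.1 in IT and 0.080 in TE. In NT-D it was 19.7 FPKM in OC, 26.1 in 1C, 6.71 in 2C, 10.1 in 4C, 9.66 in 8C, 21.3 in MO, 2.496 in IT and 2.774 in TE. In NT-LW it was 14.1 FPKM in 1C, 66.5 in 2C, 13.7 in 4C, 4.85 in 8C, 3.41 in MO, 1.79 in IT and 1.16 in TE. The highest level of all was thus in NT-LW 2C, 1.17-fold over IV-D IT (interval 1.07 to 1.27), and the next library after these, NT-D 1C, was 2.18-fold below IV-D IT (interval 1.93 to 2.48). The lowest was IV-D TE, with a single fragment.

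IL2RG was near the detection limit in most libraries and reached 1 FPKM in 7 of 23. In IV-D its level was 0.080 FPKM in OC, 0.077 in 1C, 0.334 in 2C, 39.6 in 4C, 1.86 in 8C, 0.162 in MO, 0.088 in IT and 0.1999 in TE. In NT-D it was 0.059 FPKM in OC, 0.317 in 1C, 0.118 in 2C, 0.156 in 4C, 3.52 in 8C, 1.30 in MO, 0.010 in IT and 0.014 in TE. In NT-LW it was 0.105 FPKM in 1C, 0.232 in 2C, 7.72 in 4C, 4.39 in 8C, 1.62 in MO, 0.119 in IT and 0.012 in TE. All levels of at least 1 FPKM fell in the 4-cell, 8-cell and morula stages, and the 2941 fragments of IV-D 4C exceeded those of any other library.

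BCL3 varied least. In IV-D its level was 4.27 FPKM in OC, 3.19 in 1C, 1.47 in 2C, 12.8 in 4C, 5.78 in 8C, 6.45 in MO, 15.8 in IT and 0.699 in TE. In NT-D it was 5.64 FPKM in OC, 8.26 in 1C, 1.94 in 2C, 4.01 in 4C, 8.96 in 8C, 11.3 in MO, 1.97 in IT and 0.158 in TE. In NT-LW it was 4.49 FPKM in 1C, 8.35 in 2C, 3.82 in 4C, 5.41 in 8C, 4.74 in MO, 3.06 in IT and 1.22 in TE. IV-D IT was highest, 1.23-fold over IV-D 4C (interval 1.07 to 1.42), and TE was the lowest library of each group.

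When the 23 libraries were put in order of level, many neighbours could not be separated by counting error alone. The interval of the fold between neighbours held 1 for 16 of 22 pairs for SOCS1 and for 17 of 22 pairs for both IL2RG and BCL3. The top of the order was separate in its first steps, those from NT-LW 2C through IV-D IT and NT-D 1C to NT-D MO for SOCS1, that from IV-D IT to IV-D 4C for BCL3, and the 4 steps from IV-D 4C through NT-LW 4C, NT-LW 8C and NT-D 8C to IV-D 8C for IL2RG.

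**Figure D1:**
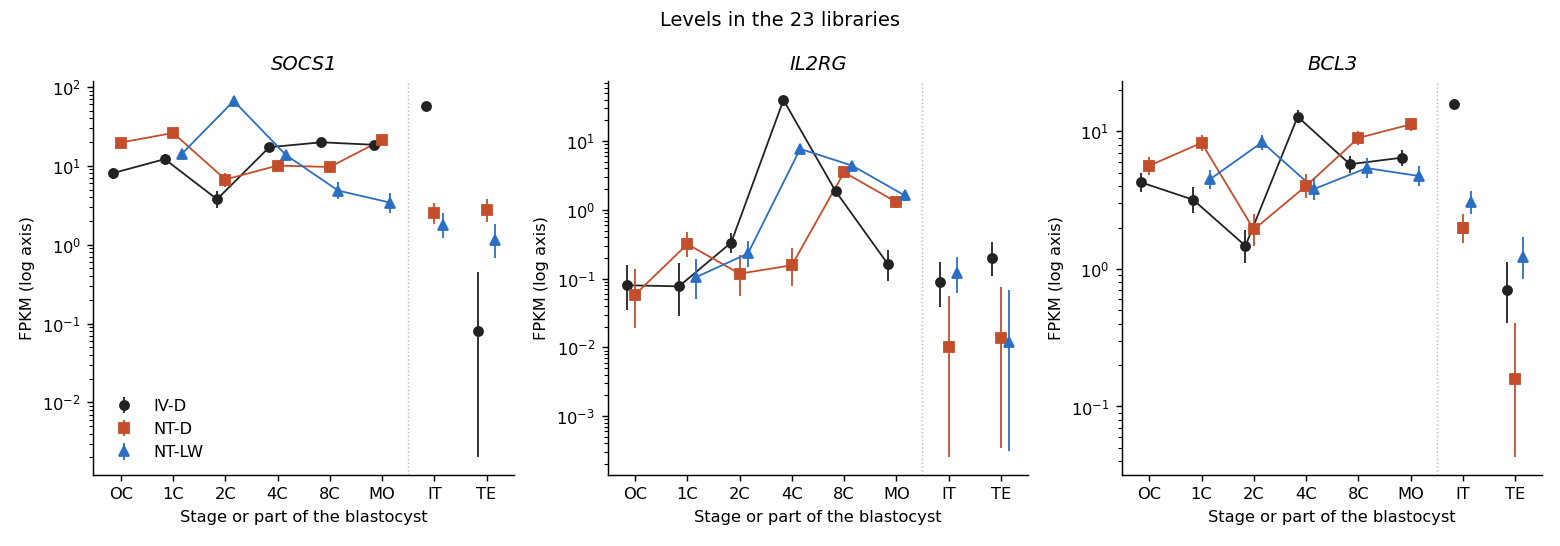
FPKM (log axis) of SOCS1, IL2RG and BCL3 by stage in IV-D, NT-D and NT-LW, 1 library per point, with 95% counting intervals as bars and lines joining OC to MO. SOCS1 peaked at 66.5 FPKM in NT-LW 2C and 57.1 in IV-D IT, IL2RG at 39.6 in IV-D 4C and BCL3 at 15.8 in IV-D IT.

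The first comparison was between IT and TE, the question being which transcripts mark the ICM. In IV-D, SOCS1 and BCL3 had been seen to pass a limit of over 10 FPKM in IT and under 1 in TE, which 51 genes passed. By IT level SOCS1 ranked 6 and BCL3 31 among them. The nearest named genes inside and outside the limit were KCTD1, at 10.1 FPKM in IT, and PGM5, at 9.82. SOCS1 had 921 fragments in IT against 1 in TE, a fold of 710 with an interval of 127 to 28069.5. BCL3 was 22.6-fold higher in IT (interval 14.0 to 39.1). On the log2(FPKM + 1) scale the differences were 5.75 and 3.30, and 18% of all 7093 genes compared were called higher in IT and 9.83% lower. IL2RG was below 1 FPKM in both parts and was not compared.

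In the clones SOCS1 showed no such difference. In NT-D it was at 2.496 FPKM in IT and 2.774 in TE, a fold of 0.8996 (interval 0.566 to 1.44). In NT-LW the fold was 1.55 (interval 0.833 to 2.97), so both intervals held 1 and lay far below the lower bound in IV-D. BCL3 was higher in IT in both clone groups, 12.5-fold in NT-D (interval 4.67 to 47.2) and 2.51-fold in NT-LW (interval 1.70 to 3.79). With a log2 difference of 1.36 it was called in NT-D, where 4.32% of all genes were called higher, and with 0.87 it was not called in NT-LW, where 5.07% were. With a pseudocount of 0.1 the NT-LW difference was 1.26 and was called, and with a minimum FPKM of 5 BCL3 was not compared in either clone group. Its 4 fragments in NT-D TE make that fold imprecise.

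**Figure D2:**
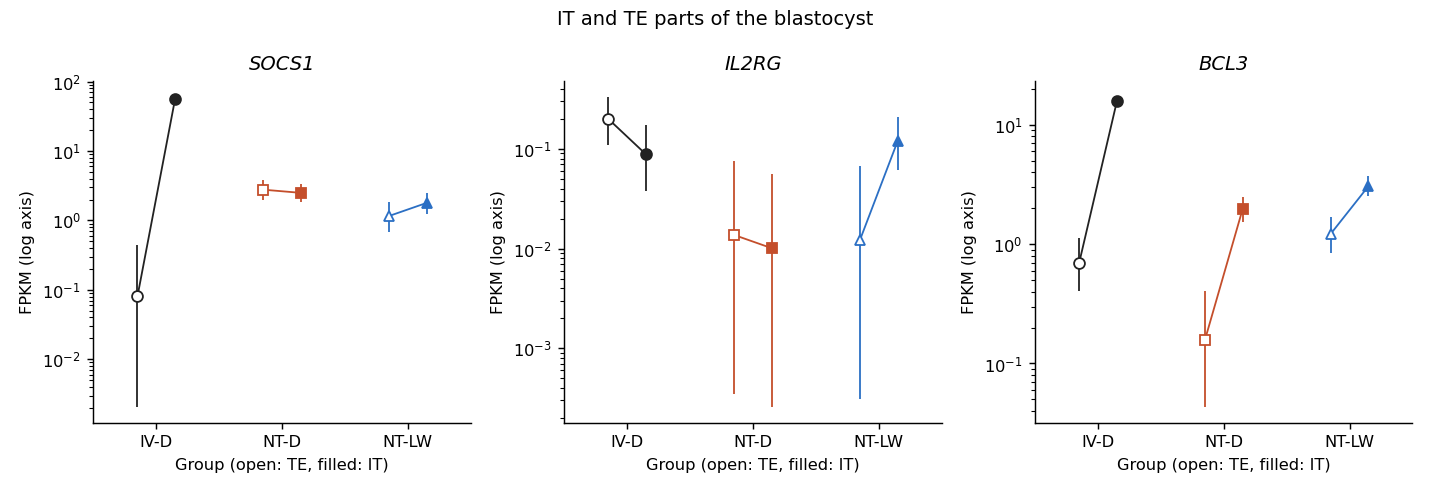
FPKM (log axis) in TE (open) and IT (filled) of the blastocyst for each group, 1 library per point, with 95% counting intervals as bars. SOCS1 spans 0.080 to 57.1 FPKM in IV-D and 2.774 to 2.496 in NT-D, while BCL3 was higher in IT in all 3 groups.

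Set against IV-D IT, both clone IT libraries were low in SOCS1 and BCL3. SOCS1 was 22.9-fold lower in NT-D IT (interval 16.9 to 31.7) and 31.9-fold lower in NT-LW IT (interval 22.4 to 46.9). BCL3 was 8.0-fold lower in NT-D IT (interval 6.20 to 10.5) and 5.16-fold lower in NT-LW IT (interval 4.18 to 6.42). All 4 differences were called, where 15.4% of genes were called lower and 9.47% higher in NT-D, and 13.7% lower and 8.7% higher in NT-LW. Both comparisons share the IV-D IT library, in which the genes had been chosen as high, so lower values elsewhere are in part fixed by that choice. The 51 genes had themselves been taken by their levels in IV-D IT and TE, so the same holds for them. Among the 51, 47 were lower in NT-D IT by more than 1 on the log2 scale and 46 in NT-LW IT. The medians of the 51 genes were -2.43 and -2.27. Among all 3502 genes over 10 FPKM in IV-D IT, taken without the TE limit, the medians were -0.21 and -0.16. SOCS1 stood at place 4 of the 51 from the most lowered in NT-D and at place 2 in NT-LW. Of the ICM or epiblast markers 4 of 6 were lower in NT-D and 5 of 6 in NT-LW, among them GSC at 39.4 FPKM in IV-D, 4.29 in NT-D and 7.32 in NT-LW. GDF3 was called in neither, at 8.26, 9.68 and 6.73. Hypoblast markers summed to 54.6 FPKM in IV-D IT, 42.5 in NT-D IT and 51.1 in NT-LW IT. GATA6 made up most of each sum, at 37.7, 34.0 and 37.4 FPKM, and was at 21.4 in IV-D TE too. Of 4 hypoblast markers compared, 1 was called lower in each clone group and 1 higher in NT-LW. The lower marker was PDGFRA, at 11.6 FPKM in IV-D IT, 1.66 in NT-D IT and 2.22 in NT-LW IT, and the higher was LAMB1. In bulk libraries fewer ICM cells and less RNA per cell cannot be told apart, and the part of the cut or of ICM size in these differences was not tested. Of the leukocyte list, FCER1G and AIF1 were high in blastocysts, and the 4 markers summed to 37.1 FPKM in IV-D IT, 1133 in NT-D IT and 469 in NT-LW IT, against 457 to 944 in TE. Most of these sums was FCER1G, at 33.0 FPKM in IV-D IT and 1049 in NT-D IT. Among the IT libraries, LCP1 and CD53 were instead highest in IV-D. LCP1 was at 1.28 FPKM against 0.302 in NT-D IT and 0 in NT-LW IT, and CD53 at 0.498 against 0.031 in both. In NT-LW TE, CD53 was at 2.45 FPKM and LCP1 at 0. The part of such cells was not tested.

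Before and after the cut, the groups also moved in different directions. From MO to IT, SOCS1 rose 3.09-fold in IV-D (interval 2.72 to 3.52) and BCL3 2.45-fold (interval 2.09 to 2.88). In this step 7.7% of genes were called higher. Both genes had been chosen as high in IV-D IT, so these rises are in part fixed by that choice. In NT-D, where 35.1% of genes were called lower, SOCS1 was 8.54-fold lower in IT than in MO (interval 6.22 to 11.97) and BCL3 5.71-fold lower (interval 4.39 to 7.51). In NT-LW, where 28.1% were called lower, neither was called, with log2 differences of -0.66 and -0.50. IL2RG was called lower in both clone groups from morula levels of 1.30 and 1.62 FPKM, but both calls were lost with median-ratio scaling, at -0.85 in NT-D and -0.88 in NT-LW, and with a minimum FPKM of 5. From MO to TE, SOCS1 and BCL3 fell in all 3 groups, by 4.17 and 2.13 in IV-D, 2.56 and 3.40 in NT-D, and 1.03 and 1.37 in NT-LW on the log2 scale. Of all genes 24.6%, 38.5% and 40.3% were called lower in these steps. Both NT-LW calls were lost with median-ratio scaling, at -0.43 and -0.73, and with a minimum FPKM of 5.

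At the 4-cell stage, the main time of genome activation in the pig, IL2RG separated the groups most. It had 2941 fragments in IV-D 4C, 11 in NT-D 4C and 692 in NT-LW 4C. IL2RG had been chosen as high in IV-D 4C, so lower clone values at this stage are in part fixed by that choice. IV-D was 253-fold over NT-D (interval 141 to 508) and 5.13-fold over NT-LW (interval 4.72 to 5.58), and NT-LW was 49.4-fold over NT-D (interval 27.4 to 99.4). These intervals do not cover variation between pools of embryos. The paper describes its replicates of this stage as relatively variable, with slightly lower correlations than at the other replicated stages. Those replicates were not analysed here, so the part of such variation in these folds was not tested. The clone differences from IV-D were -5.13 and -2.22 on the log2 scale, where 13.2% of genes were called lower in NT-D and 9.43% in NT-LW. Between the clone groups 3.42% of genes were called lower in NT-D than in NT-LW at this stage. BCL3 was also lower in both clone groups at 4C, 3.19-fold in NT-D (interval 2.54 to 4.04) and 3.35-fold in NT-LW (interval 2.71 to 4.17). SOCS1 was not called, at 17.2 FPKM in IV-D, 10.1 in NT-D and 13.7 in NT-LW.

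The rise of IL2RG came at different stages. Its rise to IV-D 4C and its fall after it are in part fixed by its choice as high there. From 2C to 4C it rose 118-fold in IV-D (interval 85.4 to 169), in a step where 34.4% of genes were called higher, and 33.3-fold in NT-LW (interval 21.8 to 53.5), where 16.5% were. In NT-D it went from 10 to 11 fragments, while 17.3% of genes were called higher. The NT-D rise came from 4C to 8C, 22.5-fold (interval 12.4 to 45.6) and to 3.52 FPKM, where 31.4% were called higher, a call lost with a minimum FPKM of 5. Over the same step IL2RG fell 21.3-fold in IV-D (interval 18.3 to 24.9), where 28.1% of genes were called lower, and in NT-LW it went from 7.72 to 4.39 FPKM. At 8C both clone groups were above IV-D, 1.89-fold for NT-D (interval 1.57 to 2.29) and 2.36-fold for NT-LW (interval 1.961 to 2.843), neither of them called, though NT-LW was with a pseudocount of 0.1, at 1.19. At MO, IL2RG was 8.02-fold higher in NT-D (interval 4.73 to 14.5) and 10.01-fold higher in NT-LW (interval 5.94 to 18.0), and the second was called, where 11.6% of genes were called higher. That call, at 1.17 on the log2 scale, was lost with median-ratio scaling, at 0.86, and with a minimum FPKM of 5, while the NT-D difference of 0.98 became a call of 2.42 with a pseudocount of 0.1.

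IL2RG lies on the X chromosome, and the clones were male. At 4C, 218 X-linked genes were compared, and 15.1% of them were called lower in NT-D and 11.9% in NT-LW, against 12.2% and 8.13% of genes on other chromosomes. Their median differences were -0.06 and -0.02, and IL2RG was the lowest of the 218 in NT-D and at place 7 from the lowest in NT-LW. These places are in part fixed by the choice of IL2RG as high in IV-D 4C, the reference of both comparisons. At 8C, where IL2RG was above IV-D in both clone groups, 33.0% of X-linked genes were called lower in NT-D and 30.6% in NT-LW, against 16.5% and 15.98% of other genes, with medians of -0.54 and -0.42. MED12, which overlaps the first exon of the long IL2RG transcript, had 0.402 FPKM in IV-D 4C and 0.109 to 1.81 in all libraries, so it did not follow the peak. The length recovered for the IL2RG model was longer than its RefSeq exons, and the strand setting of the counting is not given in the sources used here. The 4 leukocyte markers in the table, of 22 listed, were each under 1 FPKM in the 3 libraries of 4-cell embryos, with CD53 at 0.861 FPKM in IV-D. CD53 reached 25.8 FPKM in IV-D 8C, where IL2RG was at 1.86. The 1 cumulus marker in the table, HAS2, was at 2.38 FPKM in IV-D 4C, 5.21 in NT-D 4C and 18.8 in NT-LW 4C. Fibroblast markers summed to 5.48 FPKM in IV-D 4C, 35.3 in NT-D 4C and 33.3 in NT-LW 4C, and the part of donor cell transcripts in these differences was not tested.

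**Figure D3:**
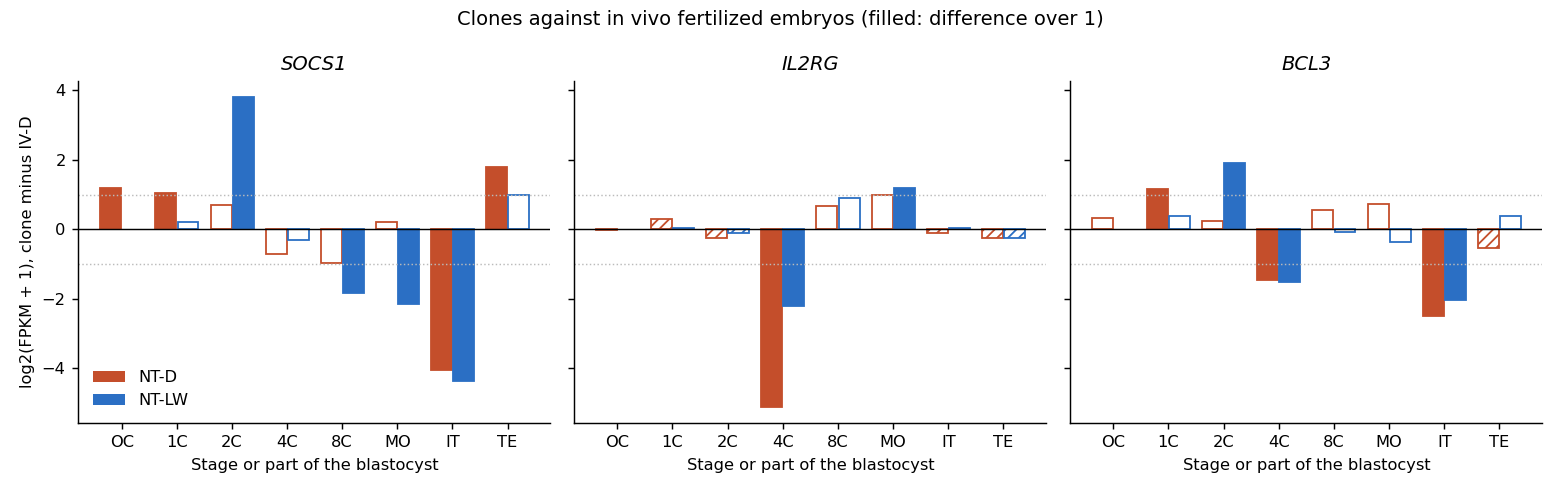
Difference of log2(FPKM + 1), clone minus IV-D, at each stage for NT-D and NT-LW, 1 library per group and stage, with filled bars for differences over 1, open bars for smaller ones and hatched bars where both libraries were under 1 FPKM. The longest bars are IL2RG at 4C in NT-D, at -5.13, and SOCS1 in IT, at -4.05 and -4.38.

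In the earliest stages SOCS1 and BCL3 RNA can be maternal. From 1C to 2C SOCS1 fell by 1.47 on the log2 scale in IV-D and by 1.82 in NT-D, as did 24.6% and 26.5% of all genes, and BCL3 was called lower in NT-D alone, with a fold of 0.234 (interval 0.172 to 0.315). In NT-LW SOCS1 instead rose 4.73-fold (interval 4.11 to 5.46), in a step where 2.83% of genes were called higher, and then fell 4.86-fold by 4C, where 19.9% were called lower. NT-LW 2C was above IV-D 2C in SOCS1 by 17.7-fold (interval 13.9 to 22.7) and in BCL3 by 5.67-fold (interval 4.23 to 7.72), but 34.7% of all genes were called higher in this comparison and the median over all genes was 0.66. Against NT-LW 2C, NT-D 2C was lower in SOCS1 by 3.13 and in BCL3 by 1.67 on the log2 scale, where 15.5% of genes were called lower. The 1121 SOCS1 fragments of NT-LW 2C are not few, and no second library of this condition was analysed here. From 2C to 4C in IV-D, all 3 genes were called higher, as were 34.4% of all genes: SOCS1 rose 4.57-fold (interval 3.49 to 6.05) and BCL3 8.70-fold (interval 6.52 to 11.8).

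SOCS1 was higher in the recipient oocytes NT-D OC than in the in vivo oocytes IV-D OC by 2.45-fold (interval 2.001 to 3.012), where 13.3% of genes were called higher. At 1C the NT-D level was 2.15-fold higher for SOCS1 (interval 1.78 to 2.60) and 2.59-fold for BCL3 (interval 2.01 to 3.37), where 18.5% were called. These 3 calls were lost with median-ratio scaling of the libraries, under which the log2 differences were 0.86, 0.58 and 0.74. SOCS1 was lower in NT-LW than in IV-D by 1.84 at 8C and by 2.14 at MO on the log2 scale, where 17.3% and 4.07% of genes were called lower. At 8C it was also 2.06-fold lower in NT-D (interval 1.70 to 2.51), a log2 difference of -0.97 that was not called. That difference was called with a pseudocount of 0.1, at -1.03, and after rescaling, at -1.25. At MO NT-D was above NT-LW in SOCS1 by 6.25-fold (interval 4.63 to 8.59) and in BCL3 by 2.37-fold (interval 1.94 to 2.92), where 14.1% of genes were called higher. From 4C to 8C SOCS1 was lower by 1.33 in NT-LW, where 25.6% of genes were called lower. In TE SOCS1 was called higher in NT-D than in IV-D, where 3.13% of genes were, a call lost with a minimum FPKM of 5. NT-LW TE was 14.4-fold over IV-D TE (interval 2.26 to 602), a log2 difference of 0.998 that was not called. That difference was called with a pseudocount of 0.1, at 2.80, with median-ratio scaling, at 1.13, and after rescaling, at 1.25. Both clone comparisons rest on 1 fragment in IV-D TE.

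The wider pathways were read from 8 lists with 132 genes, of which 57 were in the table, the 3 genes included. SOCS1 and BCL3 had been seen to be high in IV-D IT and IL2RG in IV-D 4C. List counts that use these libraries are therefore in part fixed by that choice. In IV-D, 44 were compared between IT and TE, and 20 were higher in IT and 4 lower, against 18% and 9.83% of all genes, with a median log2 difference of 0.68 against 0.19 for all genes. In NT-D 3 of 37 and in NT-LW 5 of 36 were higher in IT, against 4.32% and 5.07% of all genes, and none was lower, with medians of 0.05 and 0.49 against 0.03 and 0.26. Of 45 pathway genes compared between IT libraries, 14 were lower in NT-D than in IV-D and 3 higher, and 17 were lower in NT-LW and 2 higher. Of all genes 15.4% were lower and 9.47% higher in NT-D, and 13.7% and 8.7% in NT-LW. In the step from 2C to 4C in IV-D, 17 of 48 were higher and 5 lower, close to the 34.4% and 12.3% of all genes. At 4C, 7 of 50 pathway genes were lower in NT-D than in IV-D and 3 of 50 in NT-LW, near the shares of all genes given above. Among the 7 were IL2RG, BCL3, the phosphatase gene PTPN1, at 9.89 FPKM in IV-D and 3.03 in NT-D, and the kinase gene PIM1, at 20.6 and 4.15.

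Among the receptors, 3 of 10 genes listed as common gamma chain and related receptors were in the table. IL2RA, the alpha chain of the interleukin-2 receptor, was at 4.07 FPKM in IV-D 4C, 3.13 in NT-D 4C and 2.04 in NT-LW 4C, so the difference of IL2RG between the groups was larger than that of IL2RA. From 8C onward IL2RA was under 1 FPKM in every library. IL13RA1, a receptor chain that pairs with the interleukin-4 receptor, was at 3.39 FPKM in IV-D IT and 0.571 in TE. Of the other cytokine receptors 4 of 8 were compared in IV-D blastocysts and 3 were higher in IT, against 18% of all genes. They were IL6R, at 3.21 FPKM in IT and 0.251 in TE, IFNAR1, at 3.30 and 0.359, and IL6ST, the signal-carrying chain of the interleukin-6 and LIF receptors, at 44.9 and 14.7. IL6R was higher in IT also in NT-D, at 1.73 and 0.055 FPKM, and in NT-LW, at 4.22 and 0.261. Both ligands in the table went the other way in IV-D. KITLG was at 1.01 FPKM in IT and 6.26 in TE, and IL6, the cytokine that signals through IL6ST, at 50.4 and 107. IL6 reached 171 FPKM in NT-D IT and KITLG 29.1, both called higher than in IV-D IT.

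Among kinases and STAT factors, 2 of 5 compared genes were higher in IV-D IT than in TE, against 18% of all genes. STAT3, the main factor below IL6ST, was at 3.83 FPKM in IT and 0.147 in TE, and STAT2, a factor of the interferon response, at 7.45 and 0.889. Both were lower in the clones' IT, STAT3 at 0.566 FPKM in NT-D and 0.901 in NT-LW and STAT2 at 1.86 and 2.74. In the 4-cell libraries, where IL2RG differed so widely, JAK1 was at 40.3 FPKM in IV-D, 40.6 in NT-D and 48.4 in NT-LW, and STAT4 at 32.2, 31.3 and 26.2. None of the 5 kinases and STAT genes compared at 4C was called in either clone group.

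Of the SOCS family and other inhibitors, 10 of 12 genes were compared in IV-D blastocysts. SOCS1, CISH and PIAS1 were higher in IT and PTPN11, a phosphatase, was lower, against 18% and 9.83% of all genes. CISH, like SOCS1 a feedback inhibitor induced by STAT factors, was at 2.85 FPKM in IV-D IT and 0.095 in TE, and at 0.257 and 0.154 in the IT of NT-D and NT-LW. SOCS4 and SOCS6 were not called between IT and TE in IV-D. SOCS1, chosen as high in IV-D IT, and CISH were the only 2 of the 10 called lower in NT-D IT, and likewise in NT-LW IT. Of all genes 15.4% and 13.7% were called lower. Beside the chosen gene, CISH alone was called lower.

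All 4 compared genes of the NF-kappaB list, with BCL3 chosen as high in IV-D IT, were higher in IV-D IT than in TE, as were 18% of all genes. Beside BCL3 they were NFKBIZ, another nuclear IkappaB protein, at 3.96 and 0.907 FPKM, NFKBIA, the inhibitor that NF-kappaB induces, at 11.13 and 3.682, and NFKBIB at 87.3 and 40.2. NFKBIA was at 2.60 FPKM in NT-D IT and 2.34 in NT-LW IT. BCL3, NFKBIZ and NFKBIA were lower in the IT of both clone groups, and NFKBIB was called in NT-LW alone. Of the upstream regulators 2 of 9 were higher in IV-D IT and 1 lower, near the 18% and 9.83% of all genes. TAB1 and TRAF2 were higher and TAB2 was lower. Against IV-D IT, the IT of both clone groups was lower in TAB1 and TRAF2 and higher in TAB2.

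Of 11 target genes of STAT and NF-kappaB, 5 of the 9 compared were higher in IV-D IT than TE, against 18% of all genes, and none was lower. GADD45B, a stress-induced regulator of growth arrest, was at 43.9 FPKM in IT and 6.14 in TE, and IRF1, a transcription factor induced by interferon, at 5.95 and 0.278. In NT-D IT GADD45B was at 3.63 FPKM and IRF1 at 0.147, and in NT-LW IT at 4.75 and 0.314. Lower than in IV-D IT were 5 of 9 targets in NT-D and 7 of 10 in NT-LW, against 15.4% and 13.7% of all genes. PIM3, a kinase gene of the same list, was highest in NT-LW 2C at 45.5 FPKM, the library where SOCS1 was highest too.

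**Figure D4:**
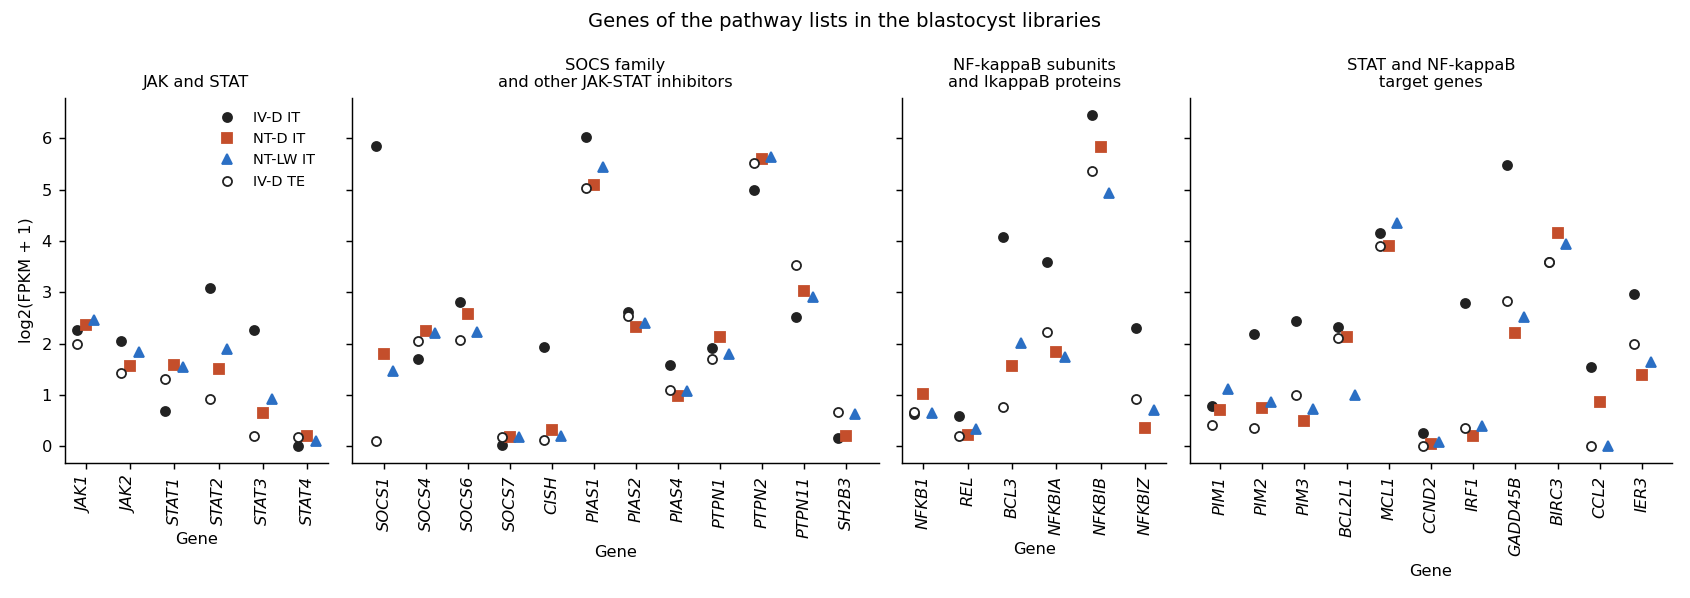
log2(FPKM + 1) of 35 genes of 4 pathway lists in the IT libraries of IV-D (black), NT-D (red) and NT-LW (blue) and in IV-D TE (open), 1 library per point. IV-D IT stands above the other 3 points for SOCS1, CISH, BCL3, NFKBIA, STAT2, STAT3, IRF1 and GADD45B.

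Genes with the most similar profiles were sought among 6733 genes with a symbol and at least 5 FPKM in a library, by Pearson's r of log2(FPKM + 1) over the 23 libraries. These values are descriptive, since the libraries share stages, pools of recipient oocytes and amplification. For SOCS1 they were PLK1, a mitotic kinase, at r = 0.82, PHAF1 at 0.81 and IL13RA1 at 0.81, and BCL3 was at place 4. For BCL3 they were CHFR, a mitotic checkpoint gene, at 0.84, CCNE1, cyclin E, at 0.81 and PHAF1 at 0.81, again with SOCS1 at place 4. The r between SOCS1 and BCL3 was 0.81, and it was 0.85 over the 12 libraries from 8C onward, where BCL3 fell to place 21 for SOCS1 and SOCS1 to place 57 for BCL3, and none of the 3 most similar genes of either was kept. IL2RG was far from both, with r of 0.15 to SOCS1 and 0.42 to BCL3.

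Genes most like IL2RG were SH2D1A, an adaptor of lymphocyte receptors that is also X-linked, at r = 0.95, and HMX2, a homeobox gene, at 0.93. SH2D1A was at 12.9 FPKM in IV-D 4C, 0.661 in NT-D 4C and 3.06 in NT-LW 4C, and HMX2 at 10.2, 0.365 and 2.83. Both were highest in IV-D 4C, with NT-LW 4C between IV-D and NT-D. They were picked for their likeness to IL2RG, so this shared peak and order are in part fixed by that choice. Over the 12 libraries from 8C onward r was 0.89 for SH2D1A and 0.87 for HMX2, at places 507 and 684. Without IV-D 4C, a setting chosen after the data were seen, r was 0.89 and 0.85. By Spearman's rho, to which the many libraries near 0 contribute by rank alone, the values were 0.73 and 0.75, and MAD2L1BP came first at 0.85.

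**Figure D5:**
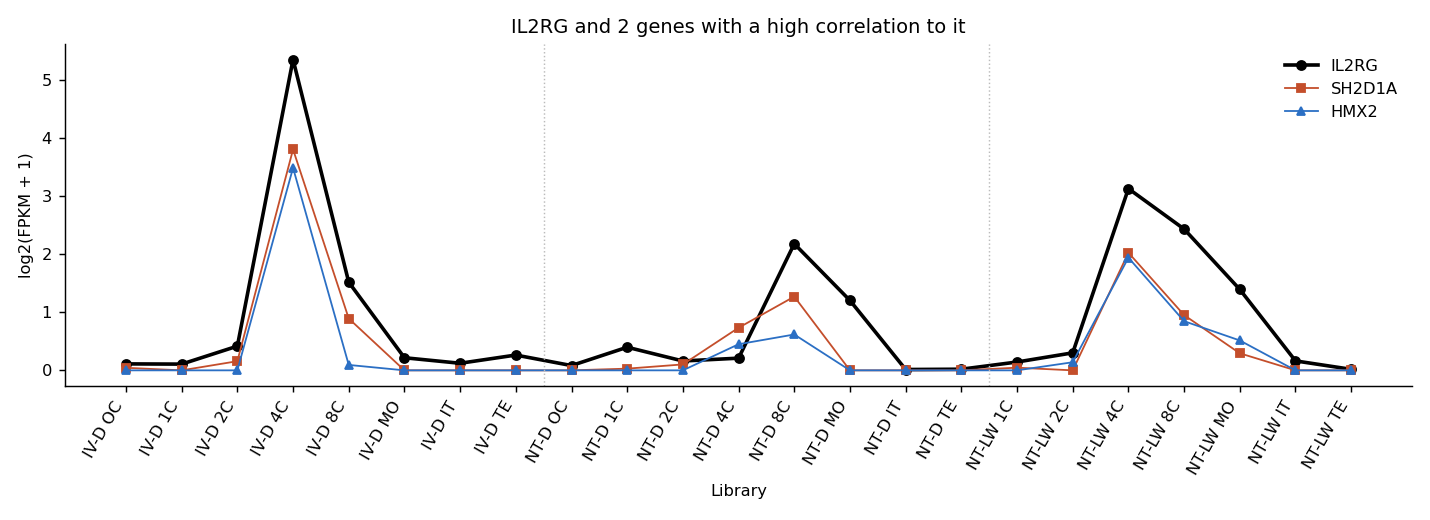
log2(FPKM + 1) of IL2RG, SH2D1A and HMX2 across the 23 libraries in the order of groups and stages, 1 library per point. All 3 genes have their maximum in IV-D 4C, and NT-LW 4C exceeds NT-D 4C for each of them. SH2D1A and HMX2 were picked by their correlation to IL2RG.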

How the data were processed

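RNA of pooled porcine oocytes and embryos had been amplified with SMART-Seq v4 and sequenced as paired ends on an Illumina platform. The authors aligned reads to Sscrofa11.1 with HISAT2 2.0.4, counted them with HTSeq 0.9.1 on the Ensembl annotation and deposited FPKM values, which correct for depth and gene length but not for differences in RNA composition between libraries. The table had 8603 genes, 7371 with a symbol, and its name calls them differentially expressed, by criteria not given for it in the sources used here. Donor cells and added replicates were not analysed here.

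Whole fragments were recovered for all 8603 genes (100% of values within 0.01 of a whole number), which gave the depth of each library, and the recovery was tested on simulated data. Libraries were grouped by their labels. The comparisons were IT against TE, clones against IV-D, NT-D against NT-LW, and successive stages. A gene was compared if its FPKM was at least 1 in 1 of the 2 libraries and called if log2(FPKM + 1) differed by more than 1, the pseudocount of 1 understating changes of low genes. With 1 library per condition no test between conditions was made. The 3 genes, the gene lists and the motifs were chosen with earlier results of these data known. Named were the 3 genes, up to 4 called genes with the largest difference in each direction per list and comparison, the 3 genes of highest r, of which 1 is not reported here, and marker genes. KCTD1, PGM5, MED12, MAD2L1BP and genes named because they were not called or for their level in a set library (IL2RA, JAK1, STAT4, SOCS4, SOCS6) lie outside this rule and were chosen after their values were seen. Other settings tried were 0.1 as pseudocount, a minimum FPKM of 5 or none, median-ratio scaling, rescaling to a sum of 1000000, Spearman's rho and fewer libraries for r. Sequences and positions came from RefSeq for Sscrofa11.1. Calculations used scipy 1.17.1, pandas 2.3.3 and numpy 2.4.6 in Python 3.11.15, and figures matplotlib 3.10.9.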

Additional observations from a re-analysis of the deposited data

Results flagged for a closer look

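In 6 cases a gene was called in opposite directions over the same step in 2 groups, with 1 library at each end, so the difference itself was not tested. The share of all genes called in opposite directions is not given here, so whether 6 is many cannot be said. From 1C to 2C, SOCS1 changed by -1.47 on the log2 scale in IV-D, -1.82 in NT-D and 2.16 in NT-LW, so IV-D and NT-LW differed by -3.63 and NT-D and NT-LW by -3.98. From 2C to 4C, SOCS1 changed by 1.93 in IV-D and -2.20 in NT-LW, a difference of 4.13. These 3 cases rest on the NT-LW 2C library, which stood apart from the other 2-cell libraries. From 4C to 8C, IL2RG changed by -3.83 in IV-D and 1.97 in NT-D, a difference of -5.79. From MO to IT, SOCS1 changed by 1.58 in IV-D and -2.67 in NT-D, a difference of 4.25, and BCL3 by 1.17 and -2.04, a difference of 3.22. The IL2RG case uses IV-D 4C and the MO to IT cases use IV-D IT. In these libraries the genes had been chosen as high, so such cases are in part fixed by that choice.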

How the results depend on the processing

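Under the 5 alternative settings no call of the 3 genes was turned to the opposite direction. Of 55 calls over all comparisons, 55 were kept with a pseudocount of 0.1 and with no minimum FPKM, 54 after rescaling, 45 with median-ratio scaling and 43 with a minimum FPKM of 5, the last of which by construction leaves low genes such as IL2RG uncompared between 8C and later libraries. Calls gained were 12 with a pseudocount of 0.1, 7 after rescaling and 3 with median-ratio scaling. With a pseudocount of 0.1 differences that rest on low values grew by more than counting error. Between IT and TE they were 8.31 for SOCS1 in IV-D and 4.31, 3.01 and 1.26 for BCL3 in IV-D, NT-D and NT-LW, the last a gained call. Against IV-D IT they were -4.46 and -4.92 for SOCS1 and -2.94 and -2.33 for BCL3 in NT-D and NT-LW, and for IL2RG at 4C -7.28 and -2.34. After rescaling they were 6.42 for SOCS1 in IV-D and 3.70 and 1.71 for BCL3 in IV-D and NT-D between IT and TE, and -5.99 and -2.40 for IL2RG at 4C. The number of genes higher in IT than TE depended more on the setting in the clones: 292 in NT-D became 478 with a pseudocount of 0.1 and 165 with a minimum of 5, and 345 in NT-LW became 623, 214, 205 with median-ratio scaling and 565 after rescaling. The highest library stayed the same for SOCS1 and IL2RG under both scalings, while for BCL3 rescaling put IV-D 4C (26.7) above IV-D IT (26.4). No paired analysis was possible because each condition had 1 library and no result came from a test. Depth limits what can be said of SOCS1 in IV-D TE (1 fragment) and of IL2RG in the clone blastocysts (1 to 12 fragments).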
